A study of Drosophila melanogaster with 6 samples.

Results

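The nuclear genes for subunits of the oxidative phosphorylation complexes were followed in leg imaginal discs of Drosophila melanogaster, the larval epithelial sacs that form the adult legs. They were chosen by name as all protein-coding genes whose symbol begins with ND-, Sdh, UQCR-, COX or ATPsyn, together with RFeSP, Cyt-c1 and blw. This gave 91 of the 17612 genes in the count table. Of these, 66 are the standard subunits, called core here, 24 are paralogs named after another subunit with an L added and taken as testis-biased, and 1, Sdhaf3, is an assembly factor of complex II. The core holds 34 genes of complex I, 4 of complex II, 8 of complex III, 8 of complex IV and 12 of complex V. They are spread over all arms, with 12 to 14 on each of X, 2L, 2R, 3L and 3R and 2, ND-49 and ATPsynbeta, on chromosome 4. The wild type (WT) discs were compared with discs labelled Double, which carry a deletion of Polycomb response elements (PREs), the DNA elements to which Polycomb group repressors are recruited. Each group had 3 libraries, and each library was made from 20 discs of third-instar larvae raised at 25 °C. The labels give no allele, locus, strain or sex, and they do not say whether replicates came from separate cultures, so the p-values reflect the scatter of these libraries alone, which may be technical.

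The mitochondrial respiratory chain passes electrons from NADH through complex I and from succinate through complex II to complex III and, by way of cytochrome c, to oxygen at complex IV. Complexes I, III and IV pump protons across the inner membrane, and complex V, the ATP synthase, lets them flow back through a rotating ring to make ATP. Complex II is encoded in the nucleus alone, while the others combine nuclear subunits with a few encoded by mitochondrial DNA. In Drosophila many of the nuclear subunit genes have a duplicate that is expressed mainly in the testis.

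The libraries held 8818943 to 13605668 counts, with WT replicate 1 the deepest. All 10 leg disc markers, among them Dll and hth, were detected. They summed to 2684 to 2775 CPM (read counts scaled to library size with TMM factors) across WT and to 2529 to 2594 CPM across Double, without overlap. The markers did not fall as a set, since 6 of the 10 had a log2 fold change above 0 and 4 below (median 0.09). dac, a leg patterning gene taken as the candidate target from background knowledge because the labels name none, fell by 0.53 on the log2 scale in Double (SE 0.06; edgeR adjusted p = 0.003869, and 0.05363 without Double replicate 3). As 1 of the 10 markers dac enters their sums, with a mean of 598.2 CPM in WT and 414.4 CPM in Double. Tissue that dissected discs can carry varied between libraries. The 8 fat body markers summed to 195.5, 6849 and 4790 CPM in the WT libraries and to 13630, 3291 and 8600 CPM in the Double libraries, and the 7 salivary gland markers were lowest at 8.85 CPM for WT replicate 1 and highest at 3522 CPM for WT replicate 3. The 6 haemocyte markers summed to 231.3, 342.0 and 245.3 CPM in the WT libraries and to 193.3, 202.5 and 224.3 CPM in the Double libraries, without overlap. Of these 6, 5 had a log2 fold change below 0, against 49.9% of all tested genes, and edgeR called 0 at an adjusted p under 0.05. Markers of neurons and glia summed to 151.2 to 306.6 CPM across WT and to 150.4 to 233.9 CPM across Double. In bulk tissue a smaller share of a cell type and less RNA per cell cannot be told apart.

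Levels were compared between genes only per length, as CPM per kb of annotated exon (mean of the 6 libraries). The core genes together took 0.905% to 1.08% of all counts in a library. Complex V had the highest median level per length, 217 CPM per kb over 12 genes, and complex IV followed with 175 CPM per kb over 8 genes. Complexes III, II and I had medians of 86.6, 66.6 and 61.4 CPM per kb over 8, 4 and 32 tested genes, and the ranges of these 3 overlapped. Ranges also overlapped between the higher and lower complexes. Complex V ran from 37.2 to 702 CPM per kb, complex IV from 122 to 237, complex III from 51.2 to 154 and complex I from 25.9 to 247. Only the range of complex II, 49.1 to 91.0, lay wholly below that of complex IV. The median over all 8802 tested genes was 16.0 CPM per kb.

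The highest levels in complex V belonged to subunits that are present in several copies in each enzyme. ATPsynC, the subunit of the rotor ring, stood at 701.7 CPM per kb, blw, the alpha subunit, at 498.7 CPM per kb and ATPsynbeta, the catalytic beta subunit, at 420.3 CPM per kb. The lowest of the complex was ATPsyndelta, a subunit of the central stalk, at 37.2 CPM per kb, so that complex V spanned 18.8-fold. That span rests on the annotated length of this gene. It has 3817 bases of exon, also in its longest transcript, against 615 to 2386 in the rest of the complex. Before scaling by length its WT mean was 145.4 CPM, beside 147.9 CPM for ATPsynE. The next lowest level per length was that of ATPsynD, at 188.7 CPM per kb. Complex IV was more even and spanned 1.95-fold, from COX7C at 121.7 to COX7B at 237.2 CPM per kb, both small membrane subunits.

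In complex I, ND-MLRQ stood apart at 246.5 CPM per kb, and the next gene was ND-ACP, the mitochondrial acyl carrier protein, at 111.3 CPM per kb. The human ortholog of ND-MLRQ, NDUFA4, is now often counted with complex IV, and ND-MLRQ lay above the 8 complex IV genes chosen by symbol but below levy and cype, complex IV subunits outside the rule, at 263 and 273 CPM per kb. With the longest transcript as the length COX7A was also above it, at 255.5 CPM per kb. Among the subunits that carry the electrons, ND-75 was at 59.7 CPM per kb, ND-51, which binds NADH, at 70.1 CPM per kb and ND-49, which lies next to the quinone site, at 107.0 CPM per kb. The lowest tested gene of complex I was ND-13A, an accessory subunit, at 25.9 CPM per kb.

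The 4 genes of complex II spanned 1.85-fold. SdhD, a membrane anchor, was at 49.1 CPM per kb, SdhA, the flavoprotein, at 61.5, SdhC, the other anchor, at 71.8 and SdhB, the iron-sulfur subunit, at 91.0. In complex III the level ran from 51.2 CPM per kb for UQCR-11 to 153.6 CPM per kb for UQCR-C1, a core protein of the matrix side. RFeSP, the Rieske iron-sulfur protein, and Cyt-c1, cytochrome c1, were at 82.2 and 73.7 CPM per kb. With the longest transcript as the length, UQCR-11 was at 76.3 CPM per kb and UQCR-6.4, at 58.8 CPM per kb, was the lowest of the complex.

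**Figure D1:**
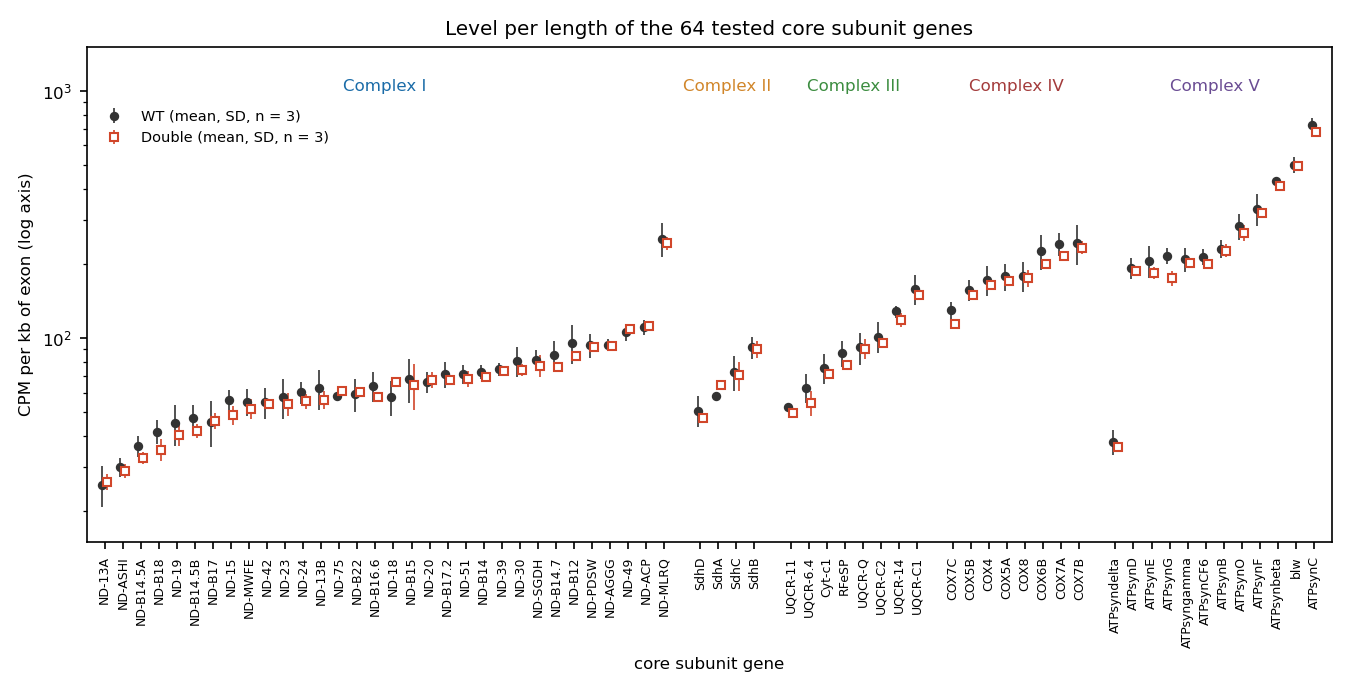
Level per length, in CPM per kb of exon on a log axis, of the 64 tested core genes, ordered by level within each complex; filled circles are WT and open squares are Double (mean and SD, n = 3 each). ATPsynC at 701.7 CPM per kb is the highest, and ND-MLRQ at 246.5 CPM per kb stands above the rest of complex I.

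The contrast of Double against WT addresses which genes respond to the PRE deletion, and no oxidative phosphorylation gene passed its test. Of the 91 members 66 had enough counts to be tested, made up of 64 core genes, 1 paralog and Sdhaf3. By edgeR's quasi-likelihood test 0 of the 66 were called at an adjusted p under 0.05, against 131 of all 8802 tested genes (1.49%; 0.545% higher and 0.943% lower in Double). At an unadjusted p under 0.05 stood 2 members, ATPsynG and COX7C, against 12.3% of all tested genes. DESeq2 called 1 member, ATPsynG, against 3.33% of the genes it gave an adjusted p, and limma-voom called 0. Groups did not overlap for 4 core genes with Double lower (ATPsynG, ATPsynbeta, COX7A and UQCR-11) and for 1 with Double higher (SdhA), against 9.11% and 10.3% of all tested genes.

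The fitted values were small. The log2 fold changes of the 64 core genes lay between -0.30 and 0.20, with standard errors of 0.06 to 0.20. The 95% interval of each of the 64 lay within a 1.5-fold change in both directions, as did that of 5797 of the 8802 tested genes. The median log2 fold change of the core was -0.07, with 55 genes below 0 and 9 above, while all tested genes had a median of 0.00 and 49.9% below 0. This lean moved with single libraries. Without WT replicate 1 the core median was 0.02 and 27 of the 64 were below 0, and without WT replicate 3 it was -0.15 with 60 below 0. For complexes I, II, III, IV and V the medians were -0.07, -0.04, -0.09, -0.06 and -0.07 on the log2 scale.

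**Figure D2:**
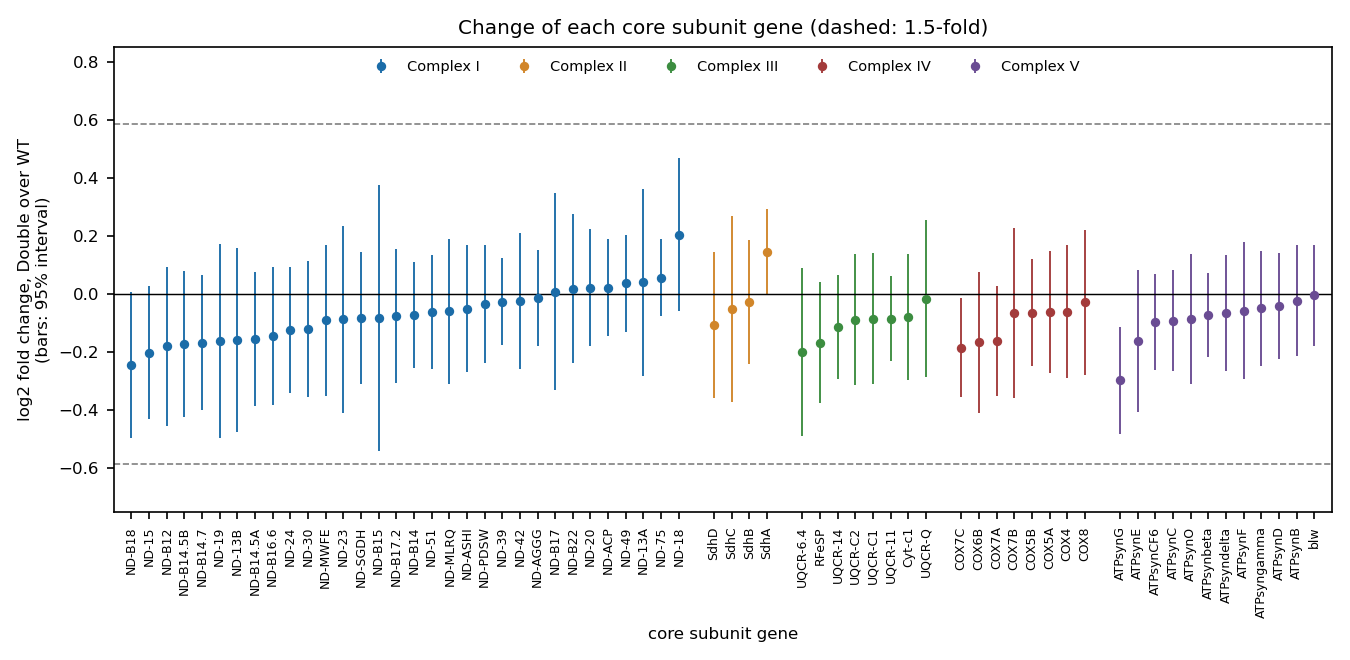
Log2 fold change of Double over WT for the 64 tested core genes, with 95% intervals from edgeR, ordered within each complex; dashed lines mark a 1.5-fold change. All intervals lie between the dashed lines, and ATPsynG at -0.30 is the lowest point.

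ATPsynG (FBgn0010612, on 2L at 10975522 to 10976399 on the minus strand, dm6) encodes subunit g of the membrane part of the ATP synthase and came nearest to the threshold. Its WT libraries read 179.2, 173.8 and 155.3 CPM, and its Double libraries 144.5, 142.5 and 126.8 CPM. Every Double value was under the lowest WT value. The mean was 169.4 ± 12.5 CPM for WT and 137.9 ± 9.68 CPM for Double (SD, n = 3 each), with a log2 fold change of -0.30 (SE 0.08; edgeR adjusted p = 0.1543). DESeq2 gave an adjusted p of 0.04851, and over the other alternatives run the adjusted p ranged from 0.05219 to 0.478.

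The catalytic and rotor subunits of complex V lay close to their WT level. For ATPsynC the WT libraries read 1443, 1369 and 1245 CPM and the Double libraries 1229, 1315 and 1264 CPM. These groups overlapped, with a log2 fold change of -0.09 (SE 0.08; edgeR adjusted p = 0.6614). For blw the WT libraries read 1181, 1165 and 1029 CPM and the Double libraries 1082, 1162 and 1119 CPM, a log2 fold change of -0.01 (SE 0.08) with an interval from -0.18 to 0.17. ATPsynbeta did not overlap between groups, but only narrowly so. Its WT libraries read 1052, 1026 and 1007 CPM and its Double libraries 987.4, 1002 and 943.7 CPM, and its log2 fold change of -0.07 (SE 0.06) did not pass (edgeR adjusted p = 0.674).

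The stalk and membrane subunits were similar in their fitted values. ATPsynE, a small membrane subunit, had a log2 fold change of -0.16 (SE 0.11; edgeR adjusted p = 0.5871). ATPsyngamma, the shaft that turns inside the catalytic head, had one of -0.05 (SE 0.09), ATPsynO, of the peripheral stalk, one of -0.09 (SE 0.10) and ATPsyndelta one of -0.07 (SE 0.09). All 12 genes of complex V, all 8 of complex IV and all 8 of complex III were below 0, and none of them passed the edgeR test. Without WT replicate 1, however, 5 of the 12 genes of complex V, 3 of the 8 of complex IV and 4 of the 8 of complex III were below 0.

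In complex IV, the cytochrome c oxidase, COX7C had the smallest p. Its WT libraries read 117.9, 112.1 and 101.5 CPM and its Double libraries 96.6, 101.9 and 93.1 CPM, and WT replicate 3 lay under Double replicate 2. The log2 fold change was -0.19 (SE 0.07), which did not pass (edgeR adjusted p = 0.3681). COX7A, another small subunit, ran from 156.7 to 187.9 CPM across WT and from 146.8 to 154.8 CPM across Double, without overlap (log2 fold change -0.16; SE 0.08; edgeR adjusted p = 0.4791). COX4 and COX5A, which sit on the mitochondrially encoded catalytic subunits, had log2 fold changes of -0.06 and -0.06 (SE 0.10 and 0.09), and COX7B one of -0.07 (SE 0.13).

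In complex III, the cytochrome bc1 complex, RFeSP had the smallest p. Its WT libraries read 110.3, 92.3 and 88.8 CPM and its Double libraries 82.4, 87.0 and 90.2 CPM. The groups overlapped through Double replicate 3, and the log2 fold change was -0.17 (SE 0.09), short of the threshold (edgeR adjusted p = 0.5081). UQCR-6.4, a small subunit, had a log2 fold change of -0.20 (SE 0.13; edgeR adjusted p = 0.5725), Cyt-c1 one of -0.08 (SE 0.09) and UQCR-C1 one of -0.09 (SE 0.10). UQCR-11 ran from 84.3 to 86.1 CPM across WT and from 76.2 to 84.0 CPM across Double, with a log2 fold change of -0.09 (SE 0.06; edgeR adjusted p = 0.6327).

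SdhA of complex II was the 1 core gene with every Double value over the highest WT value. Its WT libraries read 163.1, 165.5 and 153.8 CPM and its Double libraries 172.4, 186.9 and 173.5 CPM. The difference did not pass the test, with a log2 fold change of 0.14 (SE 0.06; edgeR adjusted p = 0.4201). The other subunits of the enzyme had overlapping groups, with log2 fold changes of -0.03 for SdhB (SE 0.09), -0.05 for SdhC (SE 0.14) and -0.11 for SdhD (SE 0.11). Sdhaf3, which acts in the maturation of SdhB, stood at 4.74 to 9.59 CPM with a log2 fold change of -0.27 (SE 0.29; edgeR adjusted p = 0.739), too wide an error to tell a 1.5-fold change.

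Of the 32 tested genes of complex I 24 were below 0 and 8 above. ND-B18, an accessory subunit, had the smallest p, with 53.3, 44.9 and 43.5 CPM for the WT libraries and 37.5, 44.5 and 37.9 CPM for the Double libraries. The groups overlapped through Double replicate 2, and the log2 fold change was -0.24 (SE 0.11), which did not pass (edgeR adjusted p = 0.4184). ND-15, also an accessory subunit, had a log2 fold change of -0.20 (SE 0.10; edgeR adjusted p = 0.4678). At the other end stood ND-18, named after its values were seen, with a log2 fold change of 0.20 (SE 0.11; edgeR adjusted p = 0.5253).

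The 3 subunits of the electron path fixed for description, ND-75, ND-51 and ND-49, had standard errors under the core median of 0.10. ND-75 read 149.9 to 157.3 CPM across WT and 155.6 to 163.8 CPM across Double, with a log2 fold change of 0.06 (SE 0.06). ND-51 and ND-49 had log2 fold changes of -0.06 (SE 0.09) and 0.04 (SE 0.07). The widest error in the core was that of ND-B15, an accessory subunit at 23.5 to 40.1 CPM, with a log2 fold change of -0.08 (SE 0.20) and an interval from -0.54 to 0.38.

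Most core genes shared their highest library. In 60 of the 64 tested core genes the highest library was WT replicate 1, against 26.9% of all tested genes (2367 of 8802). This held for all 8 genes of complex III, all 8 of complex IV, all 12 of complex V, 29 of 32 of complex I and 3 of 4 of complex II. The 4 exceptions were SdhA, highest in Double replicate 2, ND-75 and ND-18, highest in Double replicate 3, and ND-AGGG, highest in WT replicate 2. In WT replicate 1 the median core gene was at 1.21 times its mean in the other 5 libraries, where the median of all tested genes was 1.00. The core genes ranged from 0.957 times for SdhA to 1.35 times for ND-B12, an accessory subunit of complex I. The lowest library was WT replicate 3 for 28 of the 64 core genes and Double replicate 3 for 18, against 1154 and 1172 of all 8802 tested genes.

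**Figure D3:**
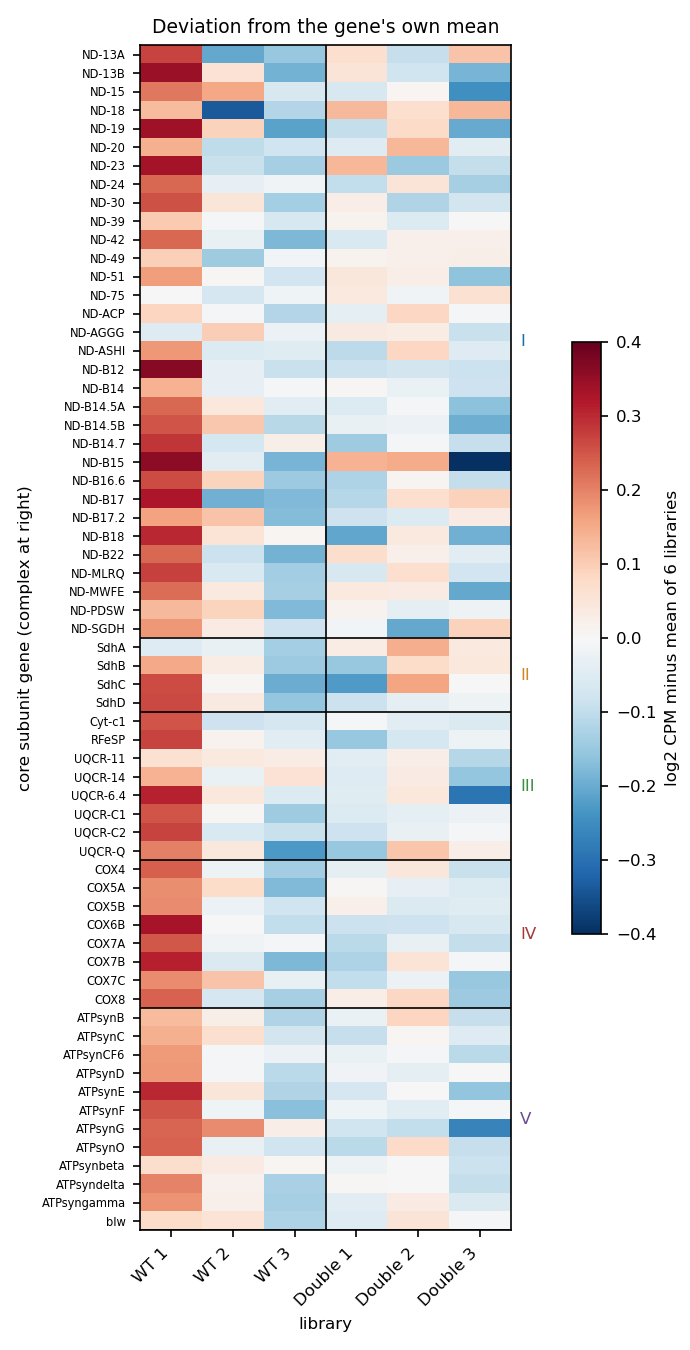
Each tested core gene (rows, by complex) in each library (columns), as log2 CPM minus the mean of that gene over the 6 libraries, with the colour scale from -0.4 to 0.4. The WT 1 column is the highest in 60 of the 64 rows.

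Summed over the 66 core genes, the WT libraries reached 10780, 9728 and 9052 CPM and the Double libraries 9303, 9691 and 9253 CPM. The group means were 9854 ± 872 and 9415 ± 240 CPM (SD, n = 3 each), so the groups differed by less than the spread within WT. Without WT replicate 1 the WT mean was 9390 CPM. By complex, WT replicate 1 was at 1.22 times the mean of the other 5 libraries for complex IV, 1.21 times for complex III, 1.16 times for complex I, 1.12 times for complex V and 1.08 times for complex II. The makeup of the core moved little, with complex V at 52.1% to 54.2% of its summed CPM across WT and 53.0% to 53.3% across Double.

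The subunits encoded by mitochondrial DNA were lowest where the nuclear ones were highest. The 13 mitochondrial genes summed to 9946, 13320 and 11820 CPM for the WT libraries and to 13170, 13010 and 11610 CPM for the Double libraries. WT replicate 1 was the lowest library for 9 of the 11 tested genes of that set and the highest for 0. Of all 8802 tested genes it was the lowest for 2313 and the highest for 2367. mt:ND5, a proton-pumping subunit of complex I, was at 161.4 CPM there and at 404.5 to 501.4 CPM elsewhere. The ratio of the summed nuclear core to the summed mitochondrial genes was 1.08 in that library and 0.706 to 0.797 in the other 5. Between the groups 0 of the 11 passed by edgeR, DESeq2 or limma-voom, where edgeR called 1.49% of all tested genes. At an unadjusted p under 0.05 stood 1, against 12.3% of all tested genes. This was mt:CoI, the catalytic subunit of complex IV, whose WT libraries read 3587, 4674 and 4151 CPM and whose Double libraries read 5114, 5070 and 4542 CPM, with overlap (log2 fold change 0.25; SE 0.10; edgeR adjusted p = 0.3863).

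Markers of carried tissue also set WT replicate 1 apart. It was the lowest library for 7 of 8 fat body markers and for 7 of 7 salivary gland markers, none of which was at 0 in all libraries. Of all 8802 tested genes it was the lowest for 2313 and the highest for 2367. It was the highest library for 7 of 11 muscle markers. The muscle markers also differed between groups, with 9 of the 11 below 0 (median log2 fold change -1.32) and 2, bt and sls, above. Groups did not overlap for 6 with Double lower and 1 with Double higher, against 9.11% and 10.3% of all tested genes. By edgeR 2 of the 11 were called, against 1.49% of all tested genes. These were up, highest in WT replicate 1, and Mp20, highest in WT replicate 2. They fell in Double by 1.63 and 2.18 on the log2 scale (SE 0.30 and 0.40; edgeR adjusted p = 0.04372 and 0.03837). The summed muscle markers were nevertheless lowest in WT replicate 1, at 313.1 CPM against 399.2 to 430.8 CPM in the other 5 libraries. There sls, which held most of the sum, was at 221.3 CPM, against 335.6 to 391.5 CPM elsewhere. The part of carried tissue, and of the larger depth of WT replicate 1, in its nuclear and mitochondrial subunit levels was not tested. The libraries were selected for poly-A, and how this bears on the mitochondrial counts was not tested.

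**Figure D4:**
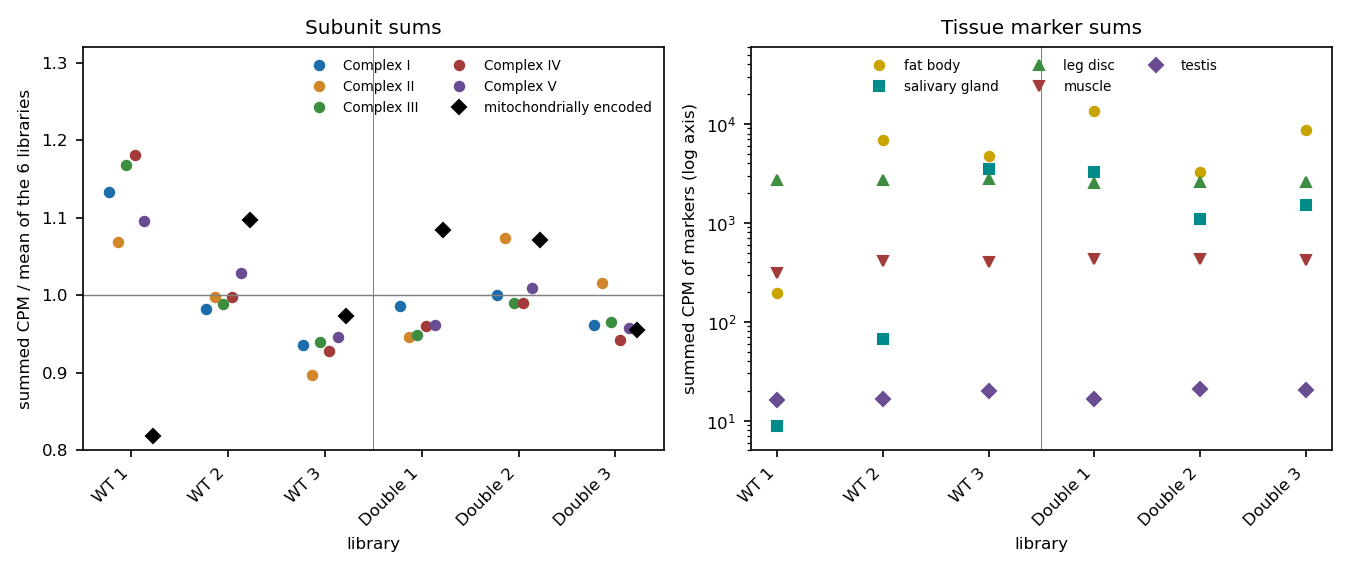
Left, summed CPM of the core genes of each complex and of the 13 mitochondrially encoded subunit genes in each library, divided by the mean of the 6 libraries. Right, summed CPM of tissue markers on a log axis; WT 1 has the highest sums of complexes I, III, IV and V and the lowest mitochondrial, fat body and salivary gland sums.

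The testis-biased paralogs had few counts in these discs. The 24 paralogs together had 222 counts over the 6 libraries, while their 21 counterparts had 218126. No count was seen for 12 paralogs, which allows up to 0.0453 CPM for each (3 counts over all libraries, counting error only). For COX6AL2, 1 of the 12, this bound may not hold, since Ir75d shares 67.0% of its exon length on the same strand. The 12 also include ATPsynbetaL, whose counterpart ATPsynbeta had 66491 counts, SdhAL, ND-49L and ND-20L. Another 10 paralogs had 1 to 9 counts each, whereas the least abundant counterpart, ND-B14.5A, had 1867. The paralogs as a set held 60, 27 and 32 counts in the WT libraries and 27, 30 and 46 counts in the Double libraries, or 3.46 ± 0.84 against 3.20 ± 1.20 CPM (SD, n = 3 each), with overlap.

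Most of those counts came from a single gene. ATPsynepsilonL, the paralog of sun, which encodes the epsilon subunit of the ATP synthase, had 44, 18 and 26 counts in the WT libraries and 20, 25 and 36 in the Double libraries. It was the 1 paralog with enough counts to be tested, with a log2 fold change of -0.02 (SE 0.41; edgeR adjusted p = 0.9912) and an interval from -0.97 to 0.93, wide enough to hold a 1.5-fold change either way. Per length it stood at 5.17 CPM per kb and sun at 253 CPM per kb, 49.0 times higher.

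Paralogs that lie beside their counterpart were also low. COX7CL, with 7, 3 and 3 counts in the WT libraries and 2, 1 and 3 in the Double libraries, begins 281 bases after the end of COX7C on 2R, and per length COX7C was 177 times higher. COX5BL lies 122 bases from COX5B and had 6 counts against 7432. COX7AL lies 2625 bases from COX7A and had 1 count against 10582. In all, 7 of the 24 paralogs are on the arm of their counterpart, and these 3 are the ones within 5 kb of it.

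The 14 testis markers summed to 16.1 to 19.7 CPM across WT and to 16.5 to 21.1 CPM across Double, mostly from mia and twe. nht was at 0 in every library, aly, comr, can, dj and Mst98Ca had 1 count each over the 6 libraries and sa had 2. Mst87F, a sperm protein gene, had 5 counts in each of Double replicates 1 and 3 and 0 elsewhere. Of the 14 only mia, twe and vas had enough counts to test, and 0 of these 3 passed by edgeR, DESeq2 or limma-voom. vas, a germline helicase gene, had 5, 2 and 9 counts in the WT libraries and 13, 21 and 17 in the Double libraries, without overlap (log2 fold change 1.70; SE 0.61; edgeR adjusted p = 0.3031), and was the 1 of these 3 at an unadjusted p under 0.05.

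**Figure D5:**
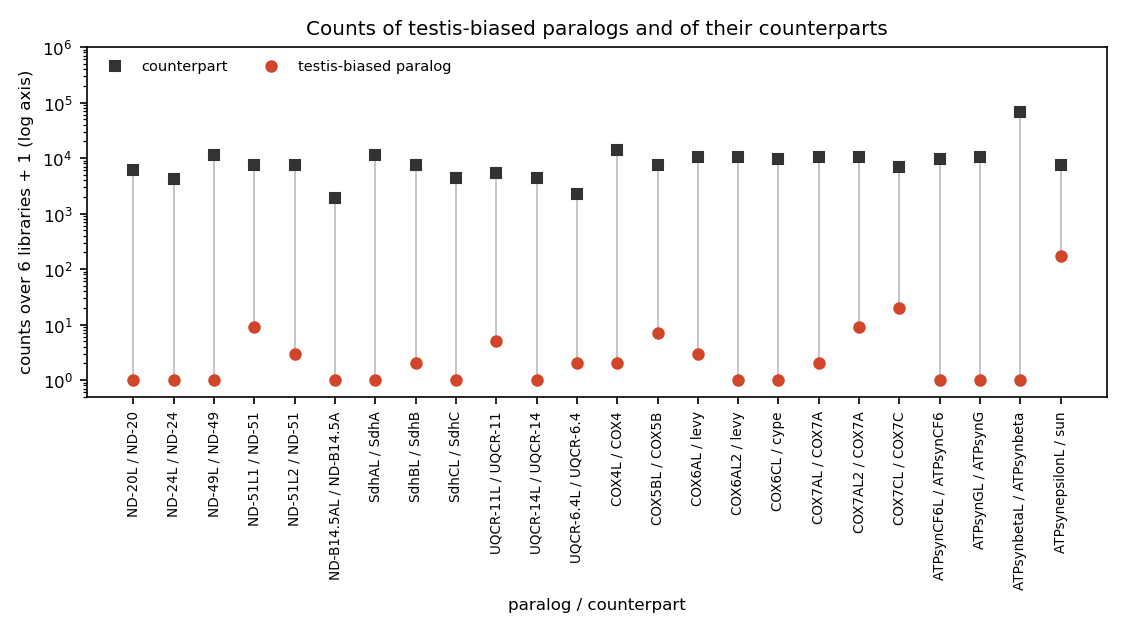
Counts over the 6 libraries plus 1, on a log axis, of each testis-biased paralog (circles) and of its counterpart (squares). Of the 24 paralogs 12 had 0 counts, and ATPsynepsilonL with 169 counts is the highest.

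A pair of core genes, both accessory subunits of complex I, had too few counts to test. ND-MNLL, on the X chromosome at 7893053 to 7893798 (dm6, minus strand), had 0 counts in every library. Its whole exon length is shared on the same strand with a second annotated gene, CG45089, which also had 0 counts in every library, so the level of ND-MNLL cannot be read from this table. ND-B8, on 2L at 4454626 to 4455207 (dm6, plus strand), had 4 counts in WT replicate 1 and 0 in the other 5 libraries. Gs1l overlaps 15.4% of its exon length on the opposite strand and had 140 to 234 counts per library.

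Gene models of other members overlap as well. Of the 66 core genes 31 share some exon length with another gene on either strand, and 4 do so on their own strand. UQCR-14, a subunit of complex III, is covered in full by CG32576 on the opposite strand, yet both had counts, at 558 to 959 per library for UQCR-14 and 184 to 347 for CG32576. Overlaps covered 35.0% of ND-MWFE, 40.5% of UQCR-6.4, 35.6% of ATPsyndelta and, among the paralogs, all of COX5BL, through Trmt6 on the opposite strand, and 67.0% of COX6AL2. On their own strand the overlaps covered 15.2% of ND-MWFE and 67.0% of COX6AL2, and the values of these genes are uncertain. The strand setting used in counting was not stated in any source used here, but the counts of UQCR-14 show that a full overlap on the opposite strand did not remove its reads.

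The rest of the pathway also gave no call by edgeR. None passed among 4 tested subunits with symbols outside the rule, 5 carriers and exchangers and 11 assembly factors. The same held for 15 genes of the TCA cycle list, 12 of glycolysis and 15 of mitochondrial biogenesis and DNA upkeep. Of all tested genes 1.49% were called, a share at which lists this short hold few calls or none. In the same order 0, 0, 1, 1, 1 and 2 stood at an unadjusted p under 0.05, against 12.3% of all tested genes. DESeq2 called 1 each among the assembly factors (Cox11), the TCA cycle list (Idh) and glycolysis (Eno), against 3.33% of all genes it gave an adjusted p. The Idh called there is the NADP-dependent enzyme, and Idh3a, Idh3b and Idh3g of the same list were not called. limma-voom called 0 in all lists. The medians of the log2 fold change were -0.14, -0.10, 0.03, -0.02, -0.03 and 0.05, beside 0.00 for all tested genes. The subunits outside the rule, levy, cype, ox and sun, were all highest in WT replicate 1, as most of the core was. Of these sun had the smallest p, with a log2 fold change of -0.20 (SE 0.13; edgeR adjusted p = 0.5852).

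Cox11, which delivers copper to complex IV during its assembly, was the list gene nearest to the threshold. Its WT libraries read 8.04, 8.49 and 9.14 CPM and its Double libraries 4.48, 4.89 and 4.07 CPM, without overlap. The log2 fold change of -0.93 (SE 0.20) passed with DESeq2 (adjusted p = 0.03014) and not with edgeR (adjusted p = 0.07646). Cox11 lies in an intron of Cap-D3, a condensin gene on the same strand, which had a log2 fold change of 0.00 (SE 0.13).

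Eno, the enolase of glycolysis, ran from 589.0 to 695.1 CPM across WT and from 506.6 to 525.5 CPM across Double (log2 fold change -0.33; SE 0.08; edgeR adjusted p = 0.09655; DESeq2 adjusted p = 0.0005495). Idh, the NADP-dependent isocitrate dehydrogenase, ran from 675.4 to 822.8 CPM across WT and from 619.7 to 626.6 CPM across Double (log2 fold change -0.26; SE 0.08; edgeR adjusted p = 0.2221; DESeq2 adjusted p = 0.02819). Neither gene overlapped between groups, and both calls rested on DESeq2. Ets97D, the fly homologue of an ETS factor that regulates nuclear genes for mitochondrial proteins, ran from 23.6 to 24.8 CPM across WT and from 28.1 to 29.9 CPM across Double (log2 fold change 0.27; SE 0.08; edgeR adjusted p = 0.2232). Mpcp2, the mitochondrial phosphate carrier, had a log2 fold change of -0.16 (SE 0.08; edgeR adjusted p = 0.4791).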

How the data were processed

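The authors deposited 1 table of raw whole-number counts for every gene and library. The tools STAR 2.7.0, HTSeq and DESeq2 and the dm6 build appear, without roles, per the submitters' processing notes. Libraries were strand-specific and poly-A selected, per the labels' protocols. Annotation release and filters were not stated in any source used here. Symbols, positions and exon lengths came from Ensembl release 115 (BDGP 6.54, dm6 coordinates), which matched 17540 of 17612 genes.

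Libraries were grouped by title. Chi-square tests of counts between replicates gave 8.99 to 36.3 per degree of freedom, above sampling noise. Groups were compared by quasi-likelihood F tests in edgeR 4.0.16 (R 4.3.3) with TMM factors, filterByExpr and group as the only term, Benjamini-Hochberg adjusted over 8802 genes. The standard error was the log2 fold change over the square root of F, with 95% intervals from the test's degrees of freedom. The fit was tested on 5 runs of simulated data with 200 of 8802 genes changed. It recovered 37.3% of the 0.667-fold, 40.9% of the 1.5-fold and 72.7% of the 2-fold changes, and 5.41% of its calls were false. A gene not called can thus still have changed by 1.5-fold where its interval allows it.

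The members and the lists were chosen with earlier results of these data known. Of 96 names in 7 pathway lists 82 were used, 11 matched no gene, 2 were members and 1 was a repeat. Genes named by rule were members past the threshold, in each complex the highest and lowest level per length and the 2 smallest p, 12 central subunits, paralogs with at least 10 counts, in each pathway list the called genes or else the smallest p, and dac. Others were named after their values were seen. Alternatives were RLE factors, library totals, no filter, a filter of 1 CPM in 3 libraries, DESeq2 1.42.0, limma-voom (limma 3.58.1), a replicate block, the longest transcript, an unadjusted p, and each library left out. Python 3.11.15 with numpy 2.4.6, pandas 2.3.3 and, for figures, matplotlib 3.10.9 was used.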

Additional observations from a re-analysis of the deposited data

How the results depend on the processing

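The number of members called was 0 in the edgeR test and remained 0 with RLE factors, library totals, no filter, the stricter filter, limma-voom, the replicate block and each library left out in turn (0 to 0). It was 1 with DESeq2 (ATPsynG) and 2 at an unadjusted p. Without WT replicate 3, 13 of the 66 tested members stood at an unadjusted p under 0.05. The share of all genes at that p was not determined for this fit, so the count has no background to be read against. At an adjusted p under 0.05 the same edgeR fit called 88 of 8981 genes and 0 members. Over all genes the calls numbered 131, and 293 with DESeq2, 104 with limma-voom and 46 to 157 with 1 library left out. The lowest count was without Double replicate 3, and the counts without WT replicate 2, Double replicate 1 and Double replicate 2 were 64, 67 and 69. The cause was not tested. The core median ranged from -0.15 without WT replicate 3 to 0.02 without WT replicate 1, the log2 ratio of the summed core from -0.12 to 0.00, and that of the paralogs from -0.46 to 0.11. The paralog value changed sign without WT replicate 1 or Double replicate 1. The replicate block gave 166 calls over all genes and a smallest adjusted p among members of 0.05219. Whether the replicate numbers pair the libraries is not known. Same-numbered deviations from the group means correlated at -0.071, -0.251 and 0.389 over genes, and differently numbered ones at -0.452 to 0.417. With 3 libraries per group these values cannot settle it. For 34 named genes 442 alternative values were run, of which 430 kept direction and side of the threshold or moved by less than the standard error, 4 passed only with DESeq2 (ATPsynG, Cox11, Idh and Eno), and 7 uncalled values moved further, all without WT replicate 1. Without that library 12 named genes changed sign, none past the threshold in either fit, and 3 or fewer did so under any other alternative. dac was at an adjusted p of 0.05363 without Double replicate 3.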
